A study of Homo sapiens with 8 samples.

Results

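The replication-dependent histone genes encode the core histones H2A, H2B, H3 and H4 and the linker histone H1 that package newly made DNA. Rows of the count table were taken as members when their Ensembl identifier carries, in GENCODE v44, a protein-coding symbol that starts with H2AC, H2BC, H3C or H4C and a number, or a symbol from H1-1 to H1-5. GENCODE v44 holds 69 such genes, and 65 of them were found among the 58233 gene rows of the table. These are 5 H1, 15 H2A, 19 H2B, 11 H3 and 15 H4 genes. H2AC18, H2AC19, H3C2 and H3C3 were not matched to a row and were not analysed here.

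The cells were MCF10A, a non-tumorigenic human breast epithelial line that here carries the H-Ras oncogene in every group. Control MCF10A cells, called WT in the labels, were compared with RBM6-KO1, a single clone edited with a Cas9 nickase in an early exon of RBM6, a gene for an RNA-binding splicing factor. Each was sequenced untreated or 12 h after 5 Gy of ionizing radiation (IR), in 2 biological replicates named A and B, which makes 8 libraries in 4 groups. Since a knockout line is 1 clone, its differences from control cells cannot be told apart from differences between clones.

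Histone mRNAs of this class are the known exception to polyadenylation in animal cells. Their 3′ end is normally cut after a short conserved stem-loop that binds the stem-loop binding protein SLBP, and the mRNA is made in S phase and degraded when DNA synthesis stops. Some of these genes also give transcripts that run past the stem-loop to a poly(A) signal further on and carry a tail, and such transcripts are known from differentiated or non-cycling cells. The libraries here were made from poly(A)-selected mRNA, so the counts report the polyadenylated form and whatever tailless RNA was carried over. Counts per gene do not separate the forms.

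The stem-loops of the 7 members with the most counts and of H2BC11, called in 1 comparison below, are shown because each gene has the processing site although poly(A) RNA was sequenced. They were read from hg38, 5′ to 3′ on the gene's strand, with the 16 bases of stem and loop in capitals.
H2AC6 (chr6:26124664-26124689, strand +): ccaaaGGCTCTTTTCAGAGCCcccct
H2BC5 (chr6:26158582-26158607, strand +): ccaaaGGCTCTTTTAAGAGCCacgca
H2BC11 (chr6:27132316-27132341, strand -): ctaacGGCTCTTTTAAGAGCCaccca
H2AC25 (chr1:228457364-228457389, strand -): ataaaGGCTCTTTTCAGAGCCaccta
H2BC12 (chr6:27146361-27146386, strand -): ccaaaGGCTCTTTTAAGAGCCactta
H2BC21 (chr1:149886183-149886208, strand -): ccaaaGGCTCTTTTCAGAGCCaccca
H1-2 (chr6:26055739-26055764, strand -): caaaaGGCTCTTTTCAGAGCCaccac
H4C9 (chr6:27139649-27139674, strand +): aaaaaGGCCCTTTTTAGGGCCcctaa

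The search took a stem of 6 base pairs, of which at least 5 pair, around a loop of 4 bases. It was limited to stretches that start with GG and have a loop starting with TT, and G-T pairs counted. Such a stretch was found within 150 bases after the stop codon in 65 of the 69 annotated genes. Its first base lay 23 to 68 bases past the stop codon. No such element was found in H2BC10, H2BC12L, H3C6 and H4C13. Within that limit, which fixes the GG and the TT, the capitals took 7 forms in all. Of these, 40 genes had the form printed for H2AC6, H2AC25, H2BC21 and H1-2, and 10 had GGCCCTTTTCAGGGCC. The loop TTTA, printed here for H2BC5, H2BC11 and H2BC12, occurred in 8 genes, and the loop TTTT of H4C9 occurred in 5.

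What set members apart was how far the annotation runs past this element. In 17 genes an annotated transcript ended over 200 bases past the stop codon, and these are called extended here. The other 52 ended within 200 bases of it. A poly(A) signal, AATAAA, stood in the last 50 bases of the farthest transcript in 11 of the 17 extended genes and in 2 of the other 52. H2AC6 (ENSG00000180573, chromosome 6, 26124145 to 26139116, plus strand) has a second exon whose end lies 14491 bases past the stop codon. H2BC5 (ENSG00000158373, chromosome 6, 26158122 to 26171349, plus strand) has one ending 12799 bases past it. The end of H2BC11 (ENSG00000124635, chromosome 6, 27125897 to 27132795, minus strand) lies 6473 bases past its stop codon. That of H2AC25 (ENSG00000181218, chromosome 1, 228434777 to 228457873, minus strand) lies 22648 bases past it. H2BC21 (ENSG00000184678, chromosome 1, 149884459 to 149886682, minus strand) runs on for 1801 bases in a single exon. H2BC12 (ENSG00000197903, chromosome 6, 27146361 to 27146855, minus strand), H1-2 (ENSG00000187837, chromosome 6, 26055740 to 26056470, minus strand) and H4C9 (ENSG00000276180, chromosome 6, 27139282 to 27139678, plus strand) are not extended, and end 57, 47 and 58 bases past their stop codons.

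Promoters were matched to RefSeq windows on GRCh38.p14, from 250 bases before to 50 after the start, for 63 of the 69 genes. A gene with several windows counted once if any of them held the motif. The octamer ATTTGCAT, read on both strands, was present in 14 of 18 H2B and 11 of 16 H2A genes. It was present in 1 of 11 H3 genes (H3C4, only in a second window that is the same as that of H2AC7). None of the 5 H1 or 13 H4 genes had it, against 2.19% of all 27305 genes. CCAAT was present in 53 of the 63 members against 39.7% of all genes, and TATAAA in 43 of 63 against 14.0%. Matches were counted separately for each motif and may overlap. The windows of H2AC6 and H2BC5, called in both IR comparisons, and of H2AC25, whose levels were lower after IR, are printed with these motifs in capitals on either strand.
H2AC6 (chr6:26123922-26124221, strand +): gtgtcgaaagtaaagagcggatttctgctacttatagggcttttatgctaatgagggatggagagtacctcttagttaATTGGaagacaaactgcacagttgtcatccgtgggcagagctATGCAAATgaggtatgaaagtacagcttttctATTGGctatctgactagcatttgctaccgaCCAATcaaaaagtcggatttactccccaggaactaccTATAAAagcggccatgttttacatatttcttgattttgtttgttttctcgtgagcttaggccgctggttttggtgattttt
H2BC5 (chr6:26157871-26158170, strand +): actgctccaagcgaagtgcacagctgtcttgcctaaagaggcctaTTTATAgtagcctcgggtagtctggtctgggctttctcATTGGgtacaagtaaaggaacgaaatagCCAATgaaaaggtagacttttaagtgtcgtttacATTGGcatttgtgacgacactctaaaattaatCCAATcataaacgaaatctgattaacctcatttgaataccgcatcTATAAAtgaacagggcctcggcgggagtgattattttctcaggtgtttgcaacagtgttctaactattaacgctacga
H2AC25 (chr1:228457824-228458123, strand -): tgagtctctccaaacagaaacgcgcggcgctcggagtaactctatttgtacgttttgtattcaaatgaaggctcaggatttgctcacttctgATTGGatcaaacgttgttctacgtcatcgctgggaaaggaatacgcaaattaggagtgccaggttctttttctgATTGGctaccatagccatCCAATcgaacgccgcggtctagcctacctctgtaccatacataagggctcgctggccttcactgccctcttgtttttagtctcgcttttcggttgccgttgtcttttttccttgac

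The H2AC6 window holds 1 octamer, that of H2BC5 none, and that of H2AC25 neither octamer nor TATAAA. H2AC6 stands head to head with H2BC4, whose window on the minus strand (chr6:26123877-26124176) covers most of the same bases. H2AC25 stands likewise beside H2BC26 (chr1:228457853-228458152, plus strand).

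Libraries held 15355281 to 29832009 counts on genes, so that a count of 0 allows up to 3 counts, or 0.0965 to 0.204 CPM (counts scaled to a library of 1000000). Such limits cover counting error only. RBM6 itself had 61.4 and 63.1 normalized CPM in untreated RBM6-KO1 cells against 66.8 and 68.7 in control cells (log2 fold change -0.14, standard error (SE) 0.15, Benjamini-Hochberg adjusted p = 0.712, edgeR quasi-likelihood), so the gene's count does not check the knockout labels. The 8 basal epithelial markers ran from 12.2 CPM at the lowest, for CDH1, to 1766.5 CPM at the highest, for ITGB4. Of other cell types, CD3E was at 0 and PTPRC, VWF, CDH5 and PDGFRA had at most 9 counts in a library, while CD14 of the leukocyte list had 3.65 to 18.9 CPM, lower in untreated RBM6-KO1 cells, and DCN of the fibroblast list had 66.5 to 204 CPM. Among 20 RNAs that carry no poly(A) tail, 12 were at 0 in all libraries. Their summed level was 5.43 to 18.7 CPM in 7 libraries and 42 CPM in replicate A of irradiated RBM6-KO1 cells, nearly all of it from RN7SL2. The part of tailless RNA in the histone counts was not tested.

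The histone genes were rare in these libraries. All 65 together took 9754 counts over the 8 libraries, and the 7 genes with the most counts held 80.6% of them. These were H2AC6, H2AC25, H2BC12, H1-2, H2BC5, H4C9 and H2BC21. At the other end, 13 members had no count in any library and 28 never had more than 3. The share held by the 7 genes lay between 76.6% and 85% in every library.

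Extended members carried more counts than the rest. The median total over the 8 libraries was 101 counts in the 17 extended genes and 5.50 in the 48 others, and 9 of the 17 reached 100 counts against 4 of the 48. In the plot of counts by family, 4 members without an annotated extension reach 100 counts. These are H2BC12, H1-2, H4C9 and H2BC8. Since longer exons collect more reads, levels between genes are given per kb of exonic length, the joined exons of all annotated transcripts. On that scale H2BC12, an H2B gene of 1 exon, was highest with a mean of 18.3 CPM per kb over the 8 libraries. The linker histone gene H1-2 had 8.60, H4C9 had 9.19, H2AC6 had 7.91, H2AC25 had 5.76 and H2BC5 had 5.68 CPM per kb. Next in their families came H2BC8 with 1.65, H2AC20 with 1.12, H4C12 with 0.609, H4C3 with 0.518 and H1-4 with 0.333 CPM per kb. No H3 gene was above the 0.656 CPM per kb of H3C10, and H3C6 had 0.414. H1-5 and H3C8 never had more than 5 counts in a library. Of 13 replacement histone genes, a class generally not tied to S phase and with polyadenylated mRNAs, 6 lay above H2BC12 per kb and 7 below it. This order depends on length, since by mean CPM only H3-5 (2.75) and H2BW1 (0) lay below H2BC12 (9.06). MACROH2A1, for example, had 241 CPM over 17013 exonic bases, against 495 bases for H2BC12. H2AZ1 had 122 CPM per kb, H3-3B, which encodes the H3.3 protein, had 60.9, and CENPA had 7.75.

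**Figure D1:**
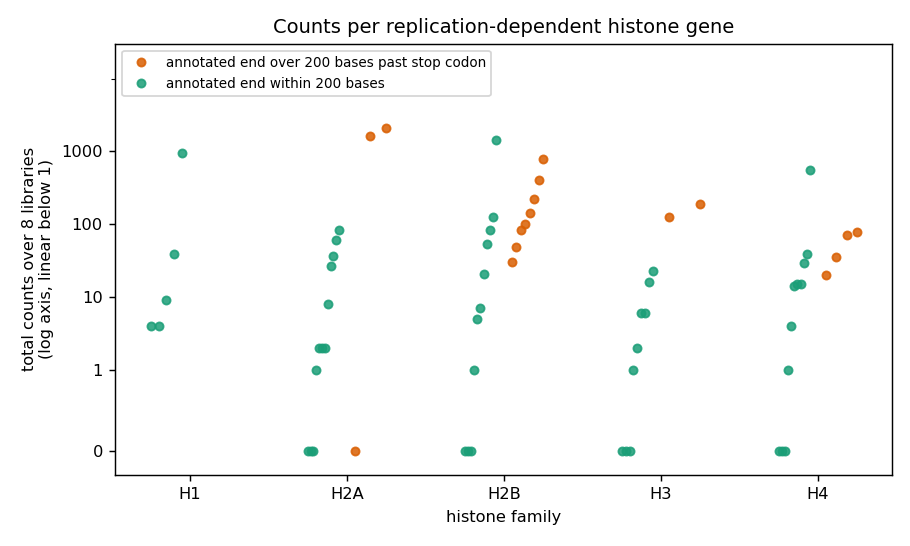
Total counts over 8 libraries (vertical axis, logarithmic above 1) of each of the 65 histone genes, by family. Orange points are extended genes and green points are the others; 13 genes sit at 0, and only 13 reach 100 counts.

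Members share near-identical coding sequences, and how reads that fit several copies were counted is not given in the sources used here. Whether counting used strand is also not given, and 31 of the 69 genes overlap another annotated gene. Among them are H2AC6, H2AC25, H2BC5 and H2BC4. Values of single members are uncertain to that extent. In bulk RNA, fewer cells with a transcript and less RNA per cell cannot be told apart.

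The first question was what IR does to these transcripts 12 h later in control cells. Their summed level was 46.7 and 49.0 normalized CPM untreated and 66.0 and 64.8 after IR, so both irradiated libraries lay above both untreated ones, by 1.37-fold on the means (47.8 ± 1.63 and 65.4 ± 0.883, SD, n = 2). RBM6-KO1 cells went from 50.9 and 55.8 to 81.8 and 84.6 CPM, or 1.56-fold (53.3 ± 3.46 and 83.2 ± 1.95). H2AC6 and H2BC5 carried most of it. Together they went from 5.46 and 8.89 to 18.1 and 20.3 CPM in control cells and from 10.9 and 13.0 to 33.1 and 34.8 CPM in RBM6-KO1 cells. The other 63 genes went from a mean of 40.6 to 46.2 CPM in control cells and from 41.4 to 49.2 CPM in RBM6-KO1 cells.

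**Figure D2:**
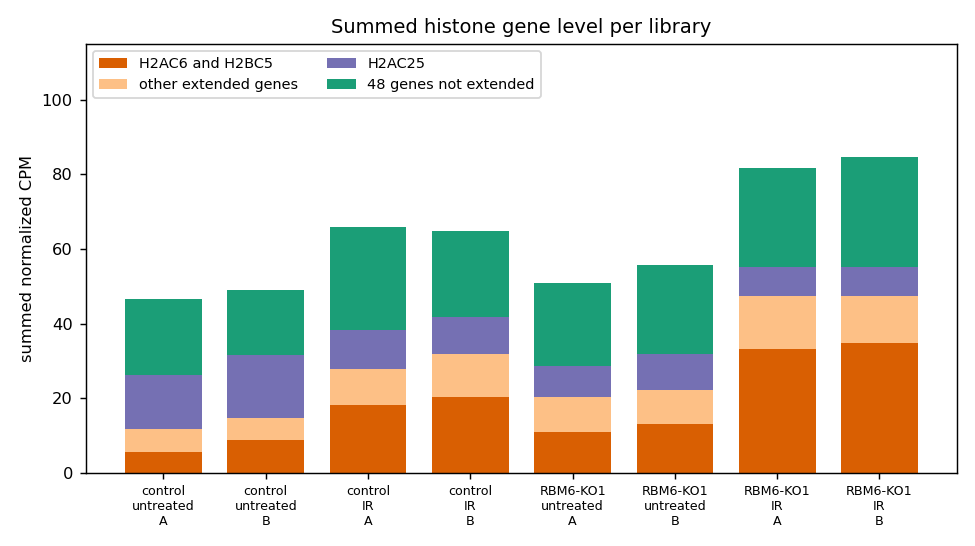
Summed normalized CPM of the 65 histone genes in each library, split into H2AC6 with H2BC5, the other extended genes, H2AC25 and the 48 genes that are not extended. The orange block grows after IR in both lines, from 5.46 and 8.89 to 18.1 and 20.3 CPM in control cells, while the H2AC25 block does not.

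In control cells 16 members could be tested, and 2 of them, H2BC5 and H2AC6, rose. Over all 15412 genes tested, 1.68% were called higher and 1.91% lower after IR, a call being an adjusted p under 0.05 and at least a 2-fold change. No member was called lower. In RBM6-KO1 cells 16 members were tested and the same pair rose, where 1.13% of 15598 genes were called higher and 1.97% lower. Again no member was called lower. The median log2 fold change of the members tested was 0.76 in control cells, with 12 of 16 above 0, and 0.51 in RBM6-KO1 cells, with 11 of 16 above 0. Over all genes tested the medians were 0.02 and -0.01. The filter can pass a member on the counts of 1 group alone, and such members count in these medians. H2AC11 in control and H4C14 in RBM6-KO1 cells passed on the irradiated libraries. H2BC26 in control cells passed on the untreated ones. With no filter the members' medians were 0.46 in control cells, over 49 members, and 0.23 in RBM6-KO1 cells, over 47, and in DESeq2 they were 0.43 and 0.24.

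H2AC6 encodes a canonical H2A protein. In control cells it had 4.05 and 6.70 normalized CPM untreated and 11.9 and 14.0 after IR, with no overlap. The log2 fold change was 1.26 (SE 0.28, Benjamini-Hochberg adjusted p = 0.0296, edgeR quasi-likelihood). RBM6-KO1 cells had 8.15 and 9.71 CPM untreated and 23.9 and 27.1 after IR. These were its highest values in any library, and the log2 fold change was 1.499 (SE 0.20, adjusted p = 0.00790 from edgeR).

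H2BC5 encodes an H2B protein. It had 1.41 and 2.20 CPM in untreated control cells and 6.21 and 6.27 after IR, the latter replicates lying close together. The log2 fold change was 1.77 (SE 0.32, adjusted p = 0.0125 from edgeR). In RBM6-KO1 cells it went from 2.70 and 3.33 to 9.28 and 7.73 CPM, a log2 fold change of 1.48 (SE 0.26, adjusted p = 0.0192 from edgeR). Both genes have the stem-loop and the distant second exon described above. Both calls in control cells were lost without replicate A of the untreated group. No member was then called, and the log2 fold changes were 1.48 for H2BC5 (adjusted p = 0.0510 from edgeR) and 0.93 for H2AC6 (adjusted p = 0.203 from edgeR).

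**Figure D3:**
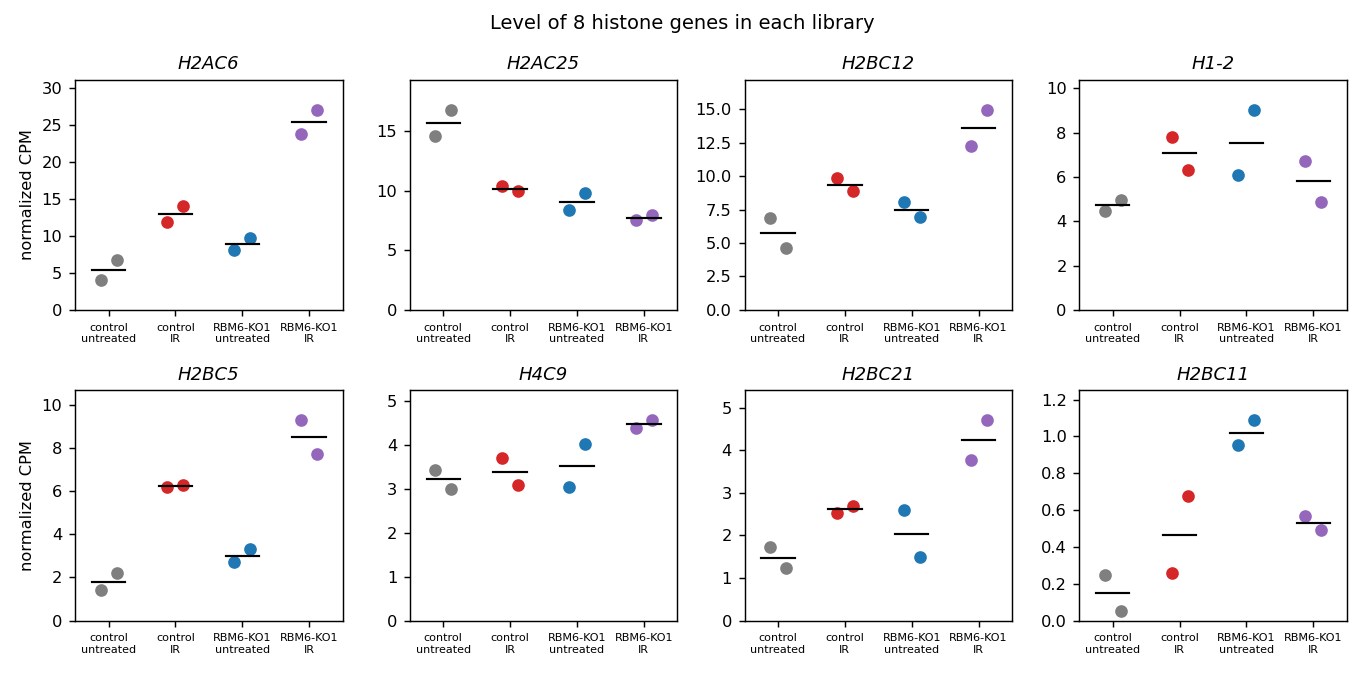
Normalized CPM of the 7 histone genes with the most counts and of H2BC11 in each library (points) with the group mean (line); each panel has its own vertical axis from 0. H2AC6 and H2BC5 lie higher in every irradiated library than in the untreated libraries of the same line, and H2AC25 lies lower.

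Of the 8 H2B genes tested in each line, 6 had values above 0 and 2 below 0. Those below were H2BC26 (log2 fold change -0.91) and H2BC9 (-0.55) in control cells and H2BC11 (-0.96) and H2BC15 (-0.34) in RBM6-KO1 cells, none of them called. H2BC12 had 6.87 and 4.66 CPM in untreated control cells and 9.83 and 8.91 after IR (log2 fold change 0.69, SE 0.27, adjusted p = 0.145 from edgeR). In RBM6-KO1 cells it went from 8.04 and 6.93 to 12.3 and 14.97 CPM (log2 fold change 0.84, SE 0.22, adjusted p = 0.0510 from edgeR). Its groups did not overlap in either line, and in RBM6-KO1 cells it missed both limits, at 1.80-fold. H2BC21 had 1.72 and 1.23 CPM untreated and 2.52 and 2.70 after IR in control cells, and 2.59 and 1.49 against 3.76 and 4.70 CPM in RBM6-KO1 cells. Its log2 fold changes were 0.82 (SE 0.36, adjusted p = 0.177 from edgeR) and 1.02 (SE 0.34, adjusted p = 0.0905 from edgeR). H2BC4, the neighbour that shares the H2AC6 promoter window, had 0.49 and 0.48 CPM in untreated control cells and 1.10 and 0.90 after IR (log2 fold change 0.9998, SE 0.49, adjusted p = 0.227 from edgeR). In RBM6-KO1 cells H2BC4 had 0.84 and 0.68 against 1.44 and 1.37 CPM, again without overlap (log2 fold change 0.85, SE 0.45, adjusted p = 0.228 from edgeR).

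Both H3 genes that could be tested, H3C6 and H3C10, are extended. H3C6 had 10 and 15 counts in untreated control cells and 20 and 66 after IR, and 10 and 8 against 40 and 18 counts in RBM6-KO1 cells. Its log2 fold changes were 1.28 (SE 0.45, adjusted p = 0.108 from edgeR) and 1.38 (SE 0.56, adjusted p = 0.137 from edgeR). H3C10 had log2 fold changes of 1.38 in control and 0.61 in RBM6-KO1 cells, neither called. H2AC11 was tested in control cells alone, where 4 and 4 counts stood against 12 and 24 (log2 fold change 1.72, SE 0.59, adjusted p = 0.0991 from edgeR). The H4 genes gave little. H4C9, the H4 gene with the most counts, had 3.43 and 3.0 CPM untreated and 3.69 and 3.09 after IR in control cells, and 3.04 and 4.01 against 4.38 and 4.55 CPM in RBM6-KO1 cells. The first of these ranges overlap, and neither change passed (log2 fold changes 0.06, SE 0.30, and 0.33, SE 0.27).

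H2AC25 had lower values after IR in both lines. It is an H2A gene outside the main cluster, on chromosome 1. In control cells it had 14.5 and 16.8 CPM untreated and 10.4 and 9.97 after IR, so that both irradiated libraries were lower (log2 fold change -0.63, SE 0.23, adjusted p = 0.116 from edgeR). RBM6-KO1 cells had 8.38 and 9.78 CPM untreated and 7.52 and 7.93 after IR (log2 fold change -0.25, SE 0.21, adjusted p = 0.463 from edgeR). Neither passed. With it left out, the other 16 extended genes had summed levels of 11.8 and 14.8 CPM untreated and 27.9 and 31.8 after IR in control cells, and of 20.3 and 22.1 against 47.5 and 47.3 CPM in RBM6-KO1 cells. The 48 genes that are not extended had 20.4 and 17.4 against 27.8 and 23.0 CPM, and 22.2 and 23.9 against 26.8 and 29.4 CPM.

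**Figure D4:**
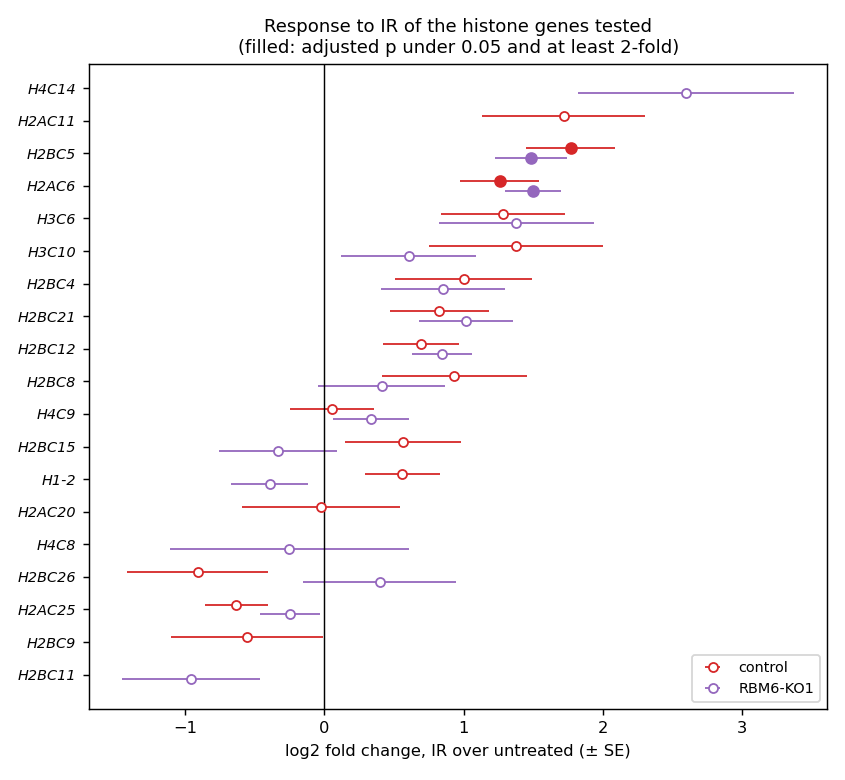
Log2 fold change of IR over untreated (horizontal axis, bars are ± SE) for each histone gene tested in control (red) or RBM6-KO1 cells (purple), filled where called. H2BC5 and H2AC6 are the only filled genes in either line, and H2BC26, H2BC15 and H1-2 have estimates of opposite sign in the 2 lines.

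Whether the response to IR differed between the lines was tested with the interaction term over all 8 libraries. None of the 20 members tested was called, as was none of all 16549 genes, or 0% (2 members had an unadjusted p under 0.05 in edgeR, and DESeq2 called none either). For H2AC6 the difference in log2 fold change, RBM6-KO1 minus control, was 0.25 (SE 0.34), and for H2BC5 it was -0.28 (SE 0.38). H1-2, the H1 gene with nearly all H1 counts, had 4.48 and 4.98 CPM in untreated control cells and 7.83 and 6.30 after IR. RBM6-KO1 cells had 6.07 and 9.04 CPM untreated and 6.70 and 4.89 after IR, and these ranges overlap. The difference in its log2 fold change was -0.94 (SE 0.38, unadjusted p = 0.0303, Benjamini-Hochberg adjusted p = 0.99998, edgeR quasi-likelihood). H2BC26, the divergent partner of H2AC25, had 15 and 15 counts untreated and 8 and 13 after IR in control cells, and 12 and 7 against 11 and 20 counts in RBM6-KO1 cells, a difference of 1.31 (SE 0.72).

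The second question was whether loss of RBM6 changes these transcripts. In untreated cells 15 members could be tested, and 1, H2BC11, was called higher in RBM6-KO1 cells, where 1.16% of all 15556 genes were called higher and 1.97% lower. No member was called lower. The median log2 fold change was 0.64, with 12 of 15 above 0, against 0.01 over all genes. It was 0.26 without the untreated control replicate B, 0.44 with all 8 libraries in 1 fit, 0.12 with no filter and 0.11 in DESeq2, both of these over 49 members. All 38 S phase genes lay above 0 in the same comparison, with a median of 0.28, and 1 of them, CLSPN, was called higher (log2 fold change 1.08, SE 0.21, adjusted p = 0.00322 from edgeR). Their part in the histone values was not tested. H2BC11, an extended H2B gene, had 4 and 1 counts in control and 17 and 16 counts in RBM6-KO1 cells. That is 0.25 and 0.05 against 0.96 and 1.09 CPM, without overlap. The log2 fold change was 2.75 (SE 0.72, adjusted p = 0.0268 from edgeR), and it depends on very few reads. The gene passed the filter only through the RBM6-KO1 libraries, in which it is high. The call was lost without either untreated RBM6-KO1 library (adjusted p = 0.0797 without replicate A and 0.108 without replicate B, both from edgeR) and without the untreated control replicate B (adjusted p = 0.433 from edgeR). With all 8 libraries in 1 fit its adjusted p from edgeR was 0.0780.

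Values of other abundant members lay within 2-fold between untreated lines. H2AC25 was lower in RBM6-KO1 cells, at 8.38 and 9.78 against 14.5 and 16.8 CPM. It passed the adjusted p but not the 2-fold limit (log2 fold change -0.80, SE 0.21, adjusted p = 0.0315 from edgeR). H2AC6 had 8.15 and 9.71 against 4.05 and 6.70 CPM (log2 fold change 0.71, SE 0.27, adjusted p = 0.153 from edgeR), with both RBM6-KO1 libraries higher. Its value depended on single libraries. It was called without replicate B of the untreated control group (log2 fold change 1.14, adjusted p = 0.0177 from edgeR) and was 0.40 without replicate A (adjusted p = 0.589 from edgeR), and without the untreated RBM6-KO1 replicate B it was 0.59 (adjusted p = 0.308 from edgeR). The H1-2 libraries also did not overlap, at 6.07 and 9.04 against 4.48 and 4.98 CPM (log2 fold change 0.65, SE 0.27, adjusted p = 0.197 from edgeR).

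After IR 19 members were tested between the lines and none was called, at a background of 0.353% of 15587 genes called higher and 0.815% lower in RBM6-KO1 cells. The unadjusted p was under 0.05 for 3 members in edgeR, and DESeq2 called none at the same limits. DESeq2 gave no adjusted p to 22 of the 46 members it fitted here, so these could not be called. The median log2 fold change was 0.19, with 12 of 19 above 0, against 0.01 over all genes. Its sign depended on the processing, since it was -0.14 in DESeq2 and 0.07 with no filter, over 46 members, 0.35 with at least 10 counts in every library and 0.34 without the irradiated RBM6-KO1 replicate B. The smallest p belonged to H2AC6, at 23.9 and 27.1 CPM in RBM6-KO1 against 11.9 and 14.0 CPM in control cells. Both RBM6-KO1 libraries were higher, and the log2 fold change of 0.98 (SE 0.21, adjusted p = 0.0920 from edgeR) fell short on both limits. The adjusted p was 0.0111 in DESeq2 and 0.00583 in edgeR with no filter, with the fold still under 2. Without replicate B of irradiated control cells it was called (log2 fold change 1.10, adjusted p = 0.0154 from edgeR). H2BC12 had a log2 fold change of 0.55 (SE 0.22, adjusted p = 0.400 from edgeR), and H2BC21 had 0.70 (SE 0.28, adjusted p = 0.411 from edgeR). H2BC11 no longer stood apart, at 0.57 and 0.49 CPM in RBM6-KO1 against 0.26 and 0.68 CPM in control cells (log2 fold change 0.06, SE 0.59).

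Genes that act on histone transcripts were counted from lists. Over all genes tested, the shares called higher and lower between lines were 1.16% and 1.97% untreated. After IR they were 0.353% and 0.815% between lines. For IR over untreated they were 1.68% and 1.91% in control and 1.13% and 1.97% in RBM6-KO1 cells. Of 25 genes for histone mRNA 3′ end processing and decay, none was called between lines or after IR in control cells in edgeR (7 untreated and 2 irradiated between lines, and 5 for IR, had an unadjusted p under 0.05). DESeq2 called 1 of them, between lines after IR. In RBM6-KO1 cells 1 fell after IR, CASP8AP2, which encodes a protein of the histone locus body (log2 fold change -1.28, SE 0.24, adjusted p = 0.0258 from edgeR). SLBP, which binds the stem-loop, had log2 fold changes after IR of -0.20 (SE 0.18) in control and -0.06 (SE 0.16) in RBM6-KO1 cells. Of 10 genes for histone gene transcription, 1 was called, E2F1, a regulator of S phase entry, which fell after IR in RBM6-KO1 cells (log2 fold change -1.36, SE 0.20, adjusted p = 0.0120 from edgeR). NPAT, the coactivator at histone promoters, had log2 fold changes after IR of 0.05 (SE 0.32) and -0.18 (SE 0.23).

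Cell cycle genes moved beside these results. Over all genes tested, 1.91% were called lower after IR in control and 1.97% in RBM6-KO1 cells. Of 50 G2/M genes, 7 fell after IR in control cells and 20 in RBM6-KO1 cells, and none rose, with medians of -0.59 and -0.82. CDC20, an activator of the anaphase-promoting complex, had log2 fold changes of -1.32 (SE 0.17, adjusted p = 0.00365 from edgeR) and -1.76 (SE 0.15, adjusted p = 0.00154 from edgeR). Of 38 S phase genes, none was called after IR in control cells (9 had an unadjusted p under 0.05 in edgeR, and DESeq2 called 0), and 2 fell in RBM6-KO1 cells, CLSPN and GINS2, which encode a replication checkpoint protein and a helicase subunit. The medians were 0.01 and -0.35. Of 12 replacement histone genes tested, none was called after IR in control cells (5 had an unadjusted p under 0.05 in edgeR, and DESeq2 called 0) and 2 fell in RBM6-KO1 cells. These were H2AX, whose product is phosphorylated at DNA breaks (log2 fold change -1.07, SE 0.18, adjusted p = 0.0190 from edgeR), and CENPA, the centromeric H3 (log2 fold change -1.02, SE 0.21, adjusted p = 0.0333 from edgeR). The median of the replacement histones was -0.24 in control and -0.36 in RBM6-KO1 cells. Histone chaperone genes had medians of -0.19 and -0.32, with 2 and 1 of 22 called lower. These were ATRX, which loads H3.3 (log2 fold changes -1.18, adjusted p = 0.00803, and -2.06, adjusted p = 0.0179, both from edgeR), and in control cells ANP32E, which removes H2A.Z (log2 fold change -1.04, adjusted p = 0.0154 from edgeR). The part of cell cycle position in the histone counts was not tested.

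**Figure D5:**
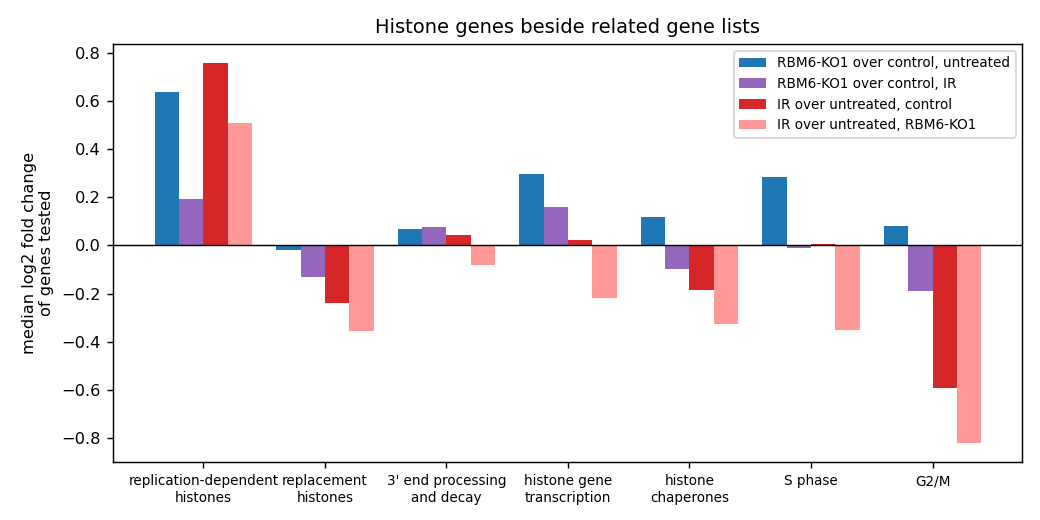
Median log2 fold change (vertical axis) of the genes tested in each list for the 4 comparisons. Some histone genes passed the filter on the counts of 1 group alone. The replication-dependent histones have medians above 0 in all 4 comparisons in edgeR (-0.14 between lines after IR in DESeq2), 0.76 and 0.51 for IR, while the G2/M list has -0.59 and -0.82 for IR.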

How the data were processed

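RNA of MCF10A control and RBM6-KO1 cells was sequenced from mRNA-selected libraries as paired-end reads, and the deposited counts are raw whole numbers per Ensembl gene that the authors made on hg38. STAR and DESeq2 are named in the submitters' processing notes. The counting tool, annotation and strandedness are not given in the sources used here. No column was left out. Symbols, exons and positions came from GENCODE v44, which holds 57392 of the 58233 identifiers.

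Tests used edgeR 4.0.16 in R 4.3.3 (quasi-likelihood, TMM normalization, filterByExpr), each comparison on its own 4 libraries and the interaction on all 8, with Benjamini-Hochberg adjustment over all genes tested. A call needed an adjusted p under 0.05 and at least a 2-fold change. The SE is the log2 fold change divided by the square root of F. Normalized CPM used the TMM factors of all 8 libraries. With 2 libraries per group no exact permutation test can go below p = 0.333. Nothing says that replicates were separate cultures beyond their label as biological, so p-values measure the spread between these libraries. The scripts were tested on simulated data. Members named were those called in any test, the 3 highest per kb in each family and the 3 with the smallest p in each test. H2BC4, H2BC9, H4C14, H2BC15 and the members in which no stem-loop was found were named outside this rule, after their values were seen. Members and lists were chosen with earlier results of these data known. Alternatives were other normalizations (DESeq2 1.42.0 size factors, upper quartile), DESeq2's Wald test, other filters, the adjusted p alone, a replicate block, 1 fit of all libraries and each library left out. A gene of the lists that this rule would name is not reported here.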

Additional observations from a re-analysis of the deposited data

Results flagged for a closer look

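H2BC11 is given for a closer look because every irradiated control library was above every untreated one (0.26 and 0.68 against 0.25 and 0.05 normalized CPM), while every irradiated RBM6-KO1 library was below every untreated one (0.57 and 0.49 against 0.96 and 1.09 CPM). The interaction term gave a difference in log2 fold change of -2.70, RBM6-KO1 minus control (SE 0.97, unadjusted p = 0.0185, Benjamini-Hochberg adjusted p = 0.99998, edgeR quasi-likelihood). The gene was picked for this pattern, so that value is no separate support for it. The IR response of H2BC11 in control cells was not tested, since the gene did not pass the filter there. Its library counts were 4, 1, 4 and 21 in control cells and 17, 16, 11 and 10 in RBM6-KO1 cells, and the 2 closest control values, 0.25 and 0.26 CPM, rest on 4 counts each.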

How the results depend on the processing

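In untreated cells the count of members called between lines was 1, and it was 2 with the adjusted p alone and 0 with DESeq2's Wald test (which gave H2BC11 no adjusted p), 0 with at least 10 counts in every library (H2BC11 was not tested) and 0 with all 8 libraries in 1 fit. DESeq2 gave no adjusted p to 35 of the 49 members it fitted there. Leaving out 1 library gave 0 to 1. Between lines after IR the count was 0, and 0 to 1 with 1 library left out (1 without replicate B of irradiated control cells). After IR in control cells it was 2, and 0 to 3 with 1 library left out, being 0 without replicate A of the untreated group. In RBM6-KO1 cells it was 2, and 2 to 3. A left-out library leaves a lone sample that is assumed to vary like the others. The replicate block gave 1, 0, 2, 2 and, for the interaction, 0 calls, the same counts as without it. The labels tie the letters to no shared batch and each comparison has 2 pairs, so the letters were not taken as pairs. The deviations of same-letter libraries correlated at 0.08, 0.35, -0.18 and -0.26 in the 4 comparisons. Between lines after IR, where the correlation was 0.35, the replicate block raised the calls over all genes from 182 to 541 and gave H2AC6 an adjusted p of 0.000365 from edgeR, still under 2-fold. A crossed replicate block, chosen after the data were examined, called 3 members after IR in control and 5 in RBM6-KO1 cells. The other normalizations kept every count. No member called or among the 3 with the smallest p reversed its sign in that comparison under the alternatives run. Depth limits most members: 45 of 65 were not tested, with at most 13 counts in a library.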

Other observations

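H4C14, an extended H4 gene, had 1 and 2 counts in untreated and 12 and 12 counts in irradiated RBM6-KO1 cells (log2 fold change 2.60, SE 0.78, adjusted p = 0.0717 from edgeR), and 3 and 6 against 7 and 28 counts in control cells, where it was not tested.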
